A study of Mus musculus with 2 samples.

Results

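Odorant receptor genes that lie outside the large receptor gene clusters of the mouse genome were located on a map of chromatin boundaries from olfactory sensory neurons. A receptor gene was taken as solitary when it stood alone or in a run of up to 4 protein-coding receptor genes, a run joining neighbours less than 500 kb apart, and chromosome 11 was left out. This rule gave 35 genes in 19 runs on 11 chromosomes, of 1134 protein-coding receptor genes in all. Of the runs, 9 held 1 gene, 6 held 2, 2 held 3 and 2 held 4, so only 9 of the 35 genes had no other protein-coding receptor gene within the join distance. The remaining receptor genes were 1092 in runs of 5 or more and 7 in small runs on chromosome 11. The rule used gene positions alone, and no boundary value entered it.

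The map came from in situ Hi-C on mature olfactory sensory neurons sorted for expression of Olfr1507, also called MOR28. In situ Hi-C ligates and sequences DNA ends that lie near each other in fixed nuclei. There was 1 group of 2 biological replicates of 170000 and 220000 cells, taken from adult MOR28-GFP mice (strain 129P2/OlaHsd, sexes mixed, olfactory epithelium) with no treatment listed, fixed in 1% formaldehyde and cut with DpnII. The cells were FACS-sorted for 1 receptor choice, so the map describes loci in neurons that express a receptor from none of the 19 runs, and the map holds no expression values against which the cell type could be checked. The authors combined the replicates before calling 7367 boundaries, each a bin of 5000 bp with a class (4052 strong, 3315 weak) and a strength. Strength is the authors' own score, ranged from 0.2 to 4.26 with a median of 0.563, and is used here only to rank and describe boundaries within this list. With a single combined list there is no replicate error, the depth is unknown and no test between groups was possible. Bracketed 95% intervals (Wilson for shares, binomial order statistics for medians) cover counting error only, and members of a run share boundaries and so are not independent.

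Odorant receptors are G protein-coupled receptors of the olfactory cilia, usually encoded in a single coding exon. Most of their genes lie in tandem arrays made by local duplication, and each mature sensory neuron transcribes a single receptor allele while the others stay silent in compacted chromatin. A Hi-C boundary is a position that few contacts cross, and boundaries often hold sites for CTCF, a zinc finger protein that halts loop extrusion by cohesin. Between neighbouring boundaries lies an interval, measured here from midpoint to midpoint. Genes within such an interval in general contact one another more often than genes beyond it, but contacts were not measured here.

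The sequences at the boundaries next to solitary genes are shown for those loci where a CTCF motif core lay in the boundary bin widened by 10 kb on each side, at both ends of an interval or at a boundary of strength above 2. They are from the GRCm38 reference (strain C57BL/6J), so differences of the 129P2/OlaHsd genome are not covered. Each runs 5′ to 3′ on the strand named, and capitals mark the bases that match the core. Both strands were searched. Of the matches shown, only that left of Olfr372 lay in the bin itself, at -2.16 kb from its midpoint (negative is to the left). The others lay in the widened part. On either side of the midpoint, they were 6.56 kb (left boundary of Olfr520) to 12.4 kb (right boundary of Olfr372) away.
Left of Olfr372, Olfr373 and Olfr374 (chr8:72035325-72035354, minus strand): ttcacccctCCAGTAGAGGGCgcactcttg
Right of Olfr372, Olfr373 and Olfr374 (chr8:72429841-72429870, plus strand): ttcacccatCCAGTAGAGGGCgcactcttg
Left of Olfr1402 (chr3:97338995-97339024, minus strand): caccatacaCCACTAGAGGGCtgcagagac
Right of Olfr1402 (chr3:97585597-97585626, minus strand): gtcatatggCCACCAGGGGGCagtgacagc
Left of Olfr520 and Olfr521 (chr7:99619046-99619075, plus strand): ctatctccaCCAGCAGATGGCgcctgcatg
Right of Olfr520 and Olfr521 (chr7:99813575-99813604, plus strand): gaggactgtCCAGCAGAGGGCacttctgag
Left of Olfr461 and Olfr460 (chr6:40479878-40479907, plus strand): aaaaatacaCCAGTAGATGGCactcttggc
Left of Olfr291 and Olfr290 (chr7:84805408-84805437, plus strand): aaagtaaagCCACTAGGTGGCagtctgtcc

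The matches shown at either end of the Olfr372 interval lay 394.5 kb apart on opposite strands and differed at 1 of 30 bases. The left boundary held a further match, at chr8:72049443-72049454 on the plus strand, the strand of the match on the right, so the strand arrangement of the interval's ends depends on which left match is taken. The next closest pair among the 13 matches found differed at 10 of 30 bases. The 30 bases include the core, where the search itself required agreement at most positions. Of the 38 distinct boundaries next to solitary genes, 12 held a match (31.6%, 19.1 to 47.5), against 23.9% of all 7367 boundaries in windows of the same length and 17 of 121 boundaries next to clustered receptor genes (14%, 8.96 to 21.4). The interval for the solitary genes holds the value over all boundaries and overlaps that for the clusters. Of the boundaries of strength above 2, those left of Olfr461 and of Olfr291 had the matches shown. Those next to the Olfr720 run (2.57), Olfr267 (2.35) and the Olfr275 run (2.03) had none.

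Upstream sequence is shown for Olfr267, Olfr372 and Olfr465-ps1, whose nearest boundary lay just upstream of the gene. Each window holds 250 bases before the transcription start site (TSS), the 5′ end of the GENCODE gene model, and overlaps no annotated exon. Capitals mark matches on either strand, overlaps included, to CCCNNGGG, the core bound by Ebf factors, and to TAATTA or TAATGA, short homeodomain motifs of the kind bound by Lhx2, a factor needed for receptor transcription.
Olfr267 (chr4:58787717-58787966, minus strand): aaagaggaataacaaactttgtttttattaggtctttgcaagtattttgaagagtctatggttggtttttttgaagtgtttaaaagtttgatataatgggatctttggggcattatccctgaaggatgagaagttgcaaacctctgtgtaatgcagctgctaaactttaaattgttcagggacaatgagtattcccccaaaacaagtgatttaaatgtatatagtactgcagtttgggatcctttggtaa
Olfr372 (chr8:72040968-72041217, plus strand): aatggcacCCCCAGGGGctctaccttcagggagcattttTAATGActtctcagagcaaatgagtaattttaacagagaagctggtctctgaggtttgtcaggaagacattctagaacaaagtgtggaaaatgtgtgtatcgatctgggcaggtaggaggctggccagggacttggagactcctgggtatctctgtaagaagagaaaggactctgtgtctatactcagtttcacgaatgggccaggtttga
Olfr465-ps1 (chr13:65137839-65138088, plus strand): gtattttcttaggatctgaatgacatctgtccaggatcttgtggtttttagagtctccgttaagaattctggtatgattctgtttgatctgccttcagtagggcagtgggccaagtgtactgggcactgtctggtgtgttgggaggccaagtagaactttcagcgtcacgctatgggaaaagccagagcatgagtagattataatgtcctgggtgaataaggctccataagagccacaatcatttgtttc

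In these windows solitary genes had homeodomain motifs about as often as clustered receptor genes. TAATGA occurred at 12 of the 35 (34.3%), namely Olfr266, Olfr290, Olfr520, Olfr521, Olfr372, Olfr371, Olfr720, Olfr31, Olfr721-ps1, Olfr49, Olfr161 and Olfr1564, against 33.0% of clustered receptor genes and 8.67% of all 21754 protein-coding genes. TAATTA occurred at 7 (20%), namely Olfr272, Olfr459, Olfr291, Olfr290, Olfr370, Olfr720 and Olfr49, against 22.4% and 4.90%. CCCNNGGG occurred at Olfr718-ps1, Olfr461, Olfr521, Olfr372 and Olfr374 (14.3%), beside 13.8% of all genes. The longer Ebf palindrome, which is that core with a T before and an A after it, was in none of the 35 windows and in 0.901% of all windows. The TATA box TATAAA was at Olfr718-ps1, Olfr290 and Olfr371 (8.57%), below the 30.4% of clustered receptor genes and near the 11.5% of all genes. Median GC content of the windows was 40.4%, against 37.2% for clustered receptor genes and 54.8% for the 20620 non-receptor genes. Its part in these shares was not tested.

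A boundary lay at the TSS, in its bin widened by 10 kb on each side, for 4 of the 35 solitary genes (11.4%, 4.54 to 26.0). The share over all protein-coding genes was 13.0%, so the solitary genes were near the background. Among clustered receptor genes it was 63 of 1092 (5.77%, 4.54 to 7.31), whose interval overlaps that of the solitary genes. No TSS of the 35 fell in an unwidened bin, while 3.45% of all genes did.

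The nearest of these boundaries to its gene was that of Olfr372, at chr8:72035001-72040000, whose midpoint lay 3.72 kb upstream of the TSS with a strength of 0.798 (strong). Olfr372 is the first gene of a run with Olfr373 and Olfr374. The nearest non-receptor gene, the cytochrome P450 gene Cyp4f18, had its TSS 31.6 kb away. Olfr267, a single gene on chromosome 4, lay 4.78 kb from a strong boundary of 2.35 at chr4:58790001-58795000, also upstream. Its nearest non-receptor gene was Ecpas, 125 kb away across that boundary. Olfr465-ps1 lay 5.59 kb from a weak boundary of 0.410 at chr13:65130001-65135000, and Mfsd14b, a transporter-family gene, had its TSS 25.1 kb away. At Olfr15 the boundary lay downstream, 11.6 kb from the TSS, at chr16:3840001-3845000, over the 3′ UTR in the last exon of Olfr15 itself, with a strength of 0.925 (strong). That window also held the TSS of the zinc finger gene Zfp174, 16.4 kb from the TSS of Olfr15. Olfr15 was the only solitary gene whose own model a nearest boundary touched, which was not counted for other genes. The 4 genes thus came from 4 runs, with boundaries on the upstream side at 3 of them.

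**Figure D1:**
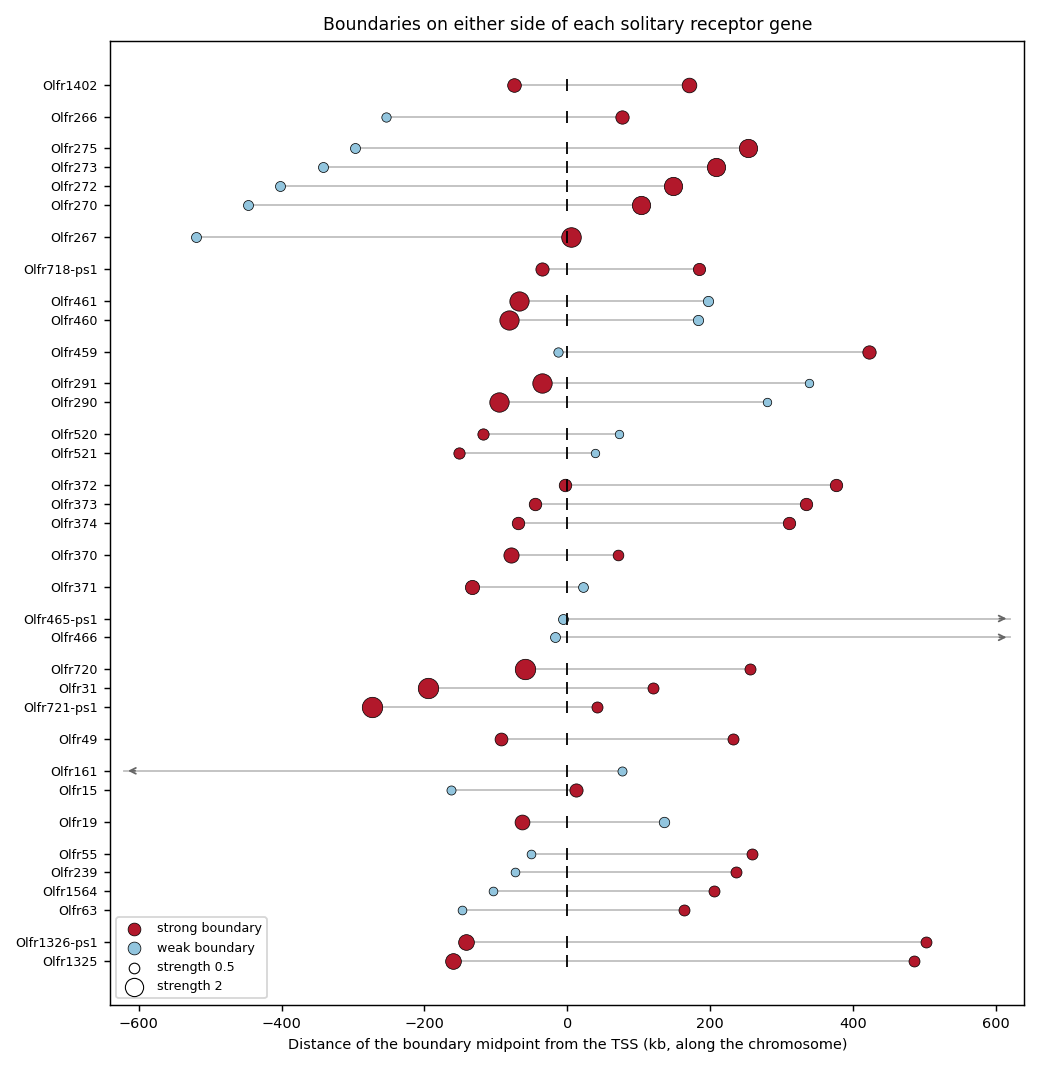
The nearest boundary on each side of every solitary receptor gene, with the distance of its midpoint from the TSS in kb along the chromosome. Each row is a gene, rows set close together are a run, dark points are strong and light points weak boundaries, and point size follows strength. The arrow to the left at Olfr161 marks a side with no boundary before the chromosome end, and the arrows to the right at Olfr465-ps1 and Olfr466 mark a boundary past the axis, 1909 and 1897 kb away. Genes of a run share both boundaries, except Olfr161 and Olfr15, which have a weak boundary between them.

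Counted per gene, solitary genes lay nearer to boundaries than clustered receptor genes and about as near as other genes. As a fraction of interval length the groups were closer. That distance had a median of 0.226 for solitary genes, 0.253 for clustered receptor genes, many of which share an interval, and 0.225 for non-receptor genes. The distance from TSS to the nearest boundary midpoint had a median of 71.7 kb (45.7 to 82.0), with a range of 3.72 kb at Olfr372 to 253 kb at Olfr275. The median was 119 kb (110 to 128) for clustered receptor genes, 59.2 kb (58.3 to 60.2) for non-receptor genes and 61.1 kb over all protein-coding genes. A boundary midpoint lay within 50 kb of 12 of the 35 TSSs (34.3%), against 42.2% of all protein-coding genes, and within 100 kb of 26 (74.3%), against 71.4%, so both shares were near the background. The nearest boundary was upstream at 16 genes and downstream at 19, a split not computed for other genes. Single genes had a median distance of 63.9 kb, members of pairs 69.9 kb, members of runs of 3 52.5 kb and members of runs of 4 126 kb.

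Intervals that held solitary genes were also shorter than those of clustered receptor genes when each gene was counted. The median was 320 kb over the 34 solitary genes with a boundary on both sides (310 to 380), 588 kb (560 to 590) over clustered receptor genes, 275 kb over non-receptor genes and 280 kb over all. Clusters put many genes into the same interval, however. Counted once each, a weighting chosen after the values were seen, the 19 intervals with solitary genes had a median of 315 kb (200 to 435), and the 86 intervals with clustered genes 337.5 kb (300 to 405). The gap between the receptor groups was thus mostly absent when intervals rather than genes were counted, and the median over all 7347 intervals was 265 kb. An interval of at least 500 kb, a length also chosen after the values were seen, held 9 of the 34 genes (26.5%, 14.6 to 43.1), against 18.2% of all protein-coding genes and 57.6% of clustered receptor genes.

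Neighbourhoods of solitary genes were as rich in other genes as those of non-receptor genes. Within 500 kb on each side a solitary TSS had a median of 17 non-receptor protein-coding TSSs (9 to 22), a clustered receptor TSS 4 and a non-receptor TSS 14. The range over solitary genes was 5 at Olfr720 to 36 at Olfr371. Of the 34 genes with a closed interval, 32 shared it with a non-receptor protein-coding TSS (94.1%, 80.9 to 98.4), beside 89.5% of all protein-coding genes and 67.5% of clustered receptor genes. Among the single genes it was 7 of 9 (77.8%, 45.3 to 93.7). Genes that share an interval are each counted in these shares. None of the 35 gene models overlapped a non-receptor protein-coding model, but such overlap was not counted for other genes.

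**Figure D2:**
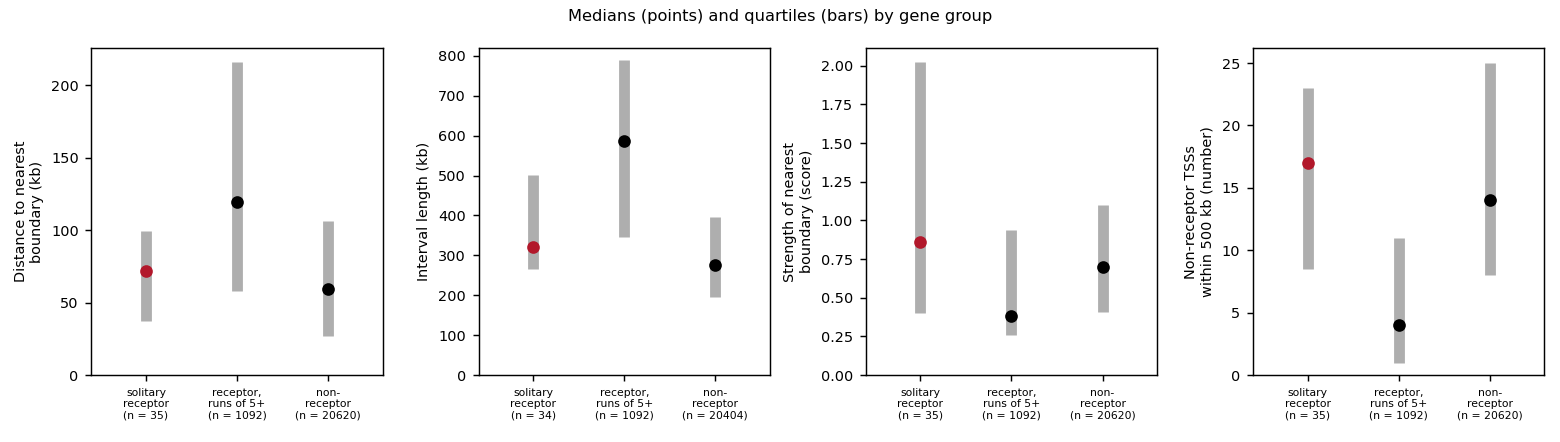
Medians (points) and quartiles (bars) over genes of the distance to the nearest boundary in kb, the interval length in kb, the strength of the nearest boundary (the authors' score) and the number of non-receptor protein-coding TSSs within 500 kb on each side. Solitary receptor genes had medians of 71.7 kb, 320 kb, 0.857 and 17, clustered receptor genes 119 kb, 588 kb, 0.382 and 4, and non-receptor genes 59.2 kb, 275 kb, 0.697 and 14.

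The longest interval held Olfr465-ps1 and Olfr466 on chromosome 13. It spanned 1915 kb, at percentile 99.7 of all intervals, between weak boundaries of 0.410 and 0.408, and both genes sat at its left end, 5.59 and 17.7 kb from the boundary. It held 11 non-receptor coding genes, and Mfsd14b, the nearest to both receptor genes, lay outside it. Like every other interval with solitary genes, this one held no assembly gap. Among its models, 54 were classed as processed and 12 as unprocessed pseudogenes. How well reads could be placed there was not tested. On the X chromosome Olfr1326-ps1 and Olfr1325 shared 645 kb with 4 predicted genes, Gm6880, Gm5640, Gm6890 and Gm5936, between strong boundaries of 1.41 and 0.556. The left of these overlapped Ikbkg and had the TSS of G6pdx, for glucose-6-phosphate dehydrogenase, in its window. Gm5640 was the nearest non-receptor gene to both, 70.7 kb from Olfr1326-ps1 and 53.0 kb from Olfr1325.

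The run of Olfr275, Olfr273, Olfr272 and Olfr270 on chromosome 4 lay in 550 kb with Toporsl, Nipsnap3a and Nipsnap3b. Its left boundary was weak at 0.414 and its right one, at chr4:53065001-53070000, had a strength of 2.03 and overlapped Abca1, the gene of a cholesterol exporter. The 4 genes lay 253, 208, 148 and 103 kb from that right boundary. Nipsnap3a was the nearest non-receptor gene to each, from 175 kb at Olfr275 to 24.7 kb at Olfr270. Olfr267, 5810 kb further along the same chromosome, lay in 525 kb with Musk, which encodes the receptor kinase of the neuromuscular junction, and Lpar1, which encodes a lysophosphatidic acid receptor.

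The shortest interval, 150 kb at percentile 13.6, held Olfr370 with Scoc and Ndufb7, a subunit gene of mitochondrial complex I. The widened windows of its strong boundaries, 1.31 and 0.512, held the TSSs of Scoc on the left and of Dnajb1 and Tecr on the right. Ndufb7 was nearest to Olfr370, 30.9 kb away. Olfr371, 1681 kb further on chromosome 8, lay in 155 kb with Zfp791 and Cks1brt, 21.5 kb from a weak boundary of 0.389. Orc6, of the origin recognition complex, was its nearest non-receptor gene at 73.6 kb and lay across that boundary. Olfr15 lay in 175 kb with Mefv, which encodes pyrin, and Zfp263. Olfr520 and Olfr521 lay in 190 kb with Tpbgl and the organic anion transporter gene Slco2b1, whose TSS was 18.9 kb from Olfr520 and 52.2 kb from Olfr521.

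Only Olfr1402 and Olfr19 had no other protein-coding TSS in their interval. Olfr1402 lay in 245 kb on chromosome 3 between strong boundaries of 1.00 and 1.20, 74.5 and 170 kb away. Both had the CTCF core matches shown above, outside the bin itself. The nearest non-receptor gene to Olfr1402 was Bcl9, a cofactor gene of Wnt signalling, 124 kb away. Olfr19 lay in 200 kb on chromosome 16, with a strong boundary of 1.23 on the left and a weak one of 0.479 on the right. The TSS of Fgd4 lay in the widened window of the left boundary, whose bin overlapped no gene model. Fgd4 was also the nearest non-receptor gene to Olfr19, at 75.9 kb.

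The other single genes had mixed company. Olfr266 shared 330 kb with Lrif1 and the tetraspanin gene Cd53, between boundaries of 0.327 and 0.949. Olfr718-ps1, the only receptor gene of chromosome 5, shared 220 kb with 9 genes, Rnf216, Rbak, Spdye4b, Spdye4a, Zfp12, Zfp316, Zfp853, E130309D02Rik and Zdhhc4. Both of its boundaries were strong, at 0.926 on the left and 0.760 on the right. Their widened windows held the TSSs of the ubiquitin ligase gene Rnf216 and the palmitoyltransferase gene Zdhhc4, in that order. Olfr459 shared 435 kb with Pip, Sval2, Sval1, Sval3, Sva and the bitter taste receptor gene Tas2r139, and lay 12.7 kb from a weak boundary of 0.327.

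Olfr49 on chromosome 14 lies beyond the T cell receptor alpha locus from Olfr1507, the gene expressed in these neurons. Their TSSs were 1789 kb apart, with 135 T cell receptor V gene models and 2 boundaries between them. Olfr1507 lay in an interval of 1685 kb and Olfr49 in one of 325 kb. The nearest boundary to Olfr49, strong at 0.857, fell over the J segments Traj29 to Traj25, 92.4 kb away. Its interval held 8 non-receptor coding genes, Dad1, Abhd4, Oxa1l, Slc7a7, Mrpl52, Mmp14, Lrp10 and Rem2.

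Among the larger runs, Olfr372, Olfr373 and Olfr374 shared 380 kb with 9 genes, Tpm4, Rab8a, Hsh2d, Cib3, Gm11034, Fam32a, Ap1m1, Gm10282 and Klf2. Their boundaries had nearly equal strengths of 0.798 and 0.785. Olfr461 and Olfr460 shared 265 kb with the bitter taste receptor genes Tas2r137, Tas2r108 and Tas2r138 and with Prss37, Clec5a and Mgam. Olfr291 and Olfr290 shared 375 kb with Vmn2r65, Vmn2r66 and Vmn2r67, which encode vomeronasal receptors. Olfr55, Olfr239, Olfr1564 and Olfr63 shared 310 kb with Morc2b and the zinc finger genes Zfp955a, Zfp955b, Zfp81 and Zfp101. Olfr720, Olfr31 and Olfr721-ps1 shared 315 kb with a single coding gene, Il3ra, the interleukin-3 receptor alpha chain.

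In all, the 19 intervals held 77 non-receptor protein-coding genes. Of these, 10 had a zinc finger symbol of Zfp plus digits (13.0%, against 1.91% of all non-receptor genes). Taste receptor symbols, Tas1r or Tas2r, were held by 4, all of them Tas2r (5.19%, against 0.184%). There were also 3 vomeronasal receptor genes (3.90%, against 1.61%) and 4 of the Sva and Sval family (5.19%, against 0.0194%). Predicted genes with Gm symbols were 11 (14.3%, against 6.51%). These families lie in tandem clusters themselves and were picked out after the gene names were seen, so the counts describe these loci only.

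**Figure D3:**
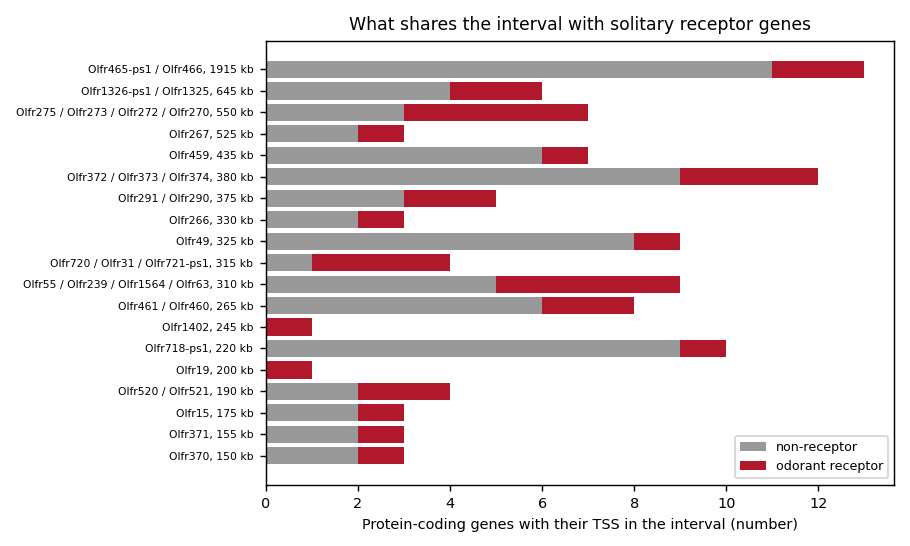
Protein-coding genes with their TSS in each of the 19 intervals that hold solitary receptor genes, as counts of receptor (dark red) and non-receptor (grey) genes. Intervals are ordered by length from 1915 kb to 150 kb, and only those of Olfr1402 and Olfr19 have no non-receptor gene.

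The nearest boundary was strong for 24 of the 35 solitary genes (68.6%, 52.0 to 81.4), against 64.8% of all protein-coding genes and 39.4% (36.5 to 42.3) of clustered receptor genes. Its median strength was 0.857 (0.512 to 1.41), against 0.688 over all protein-coding genes and 0.382 (0.349 to 0.383) over clustered receptor genes. Both flanking boundaries were strong for 12 of 34 genes (35.3%), beside 39.4% of all genes. Counted once each, boundaries next to the receptor groups were alike in strength, with a median of 0.683 over the 38 next to solitary genes and 0.679 over the 121 next to clusters. Strong ones made up 65.8% (49.9 to 78.8) and 61.2% (52.3 to 69.4), against 55.0% of all boundaries. The widened window held a non-receptor coding TSS at 14 of the 38 (36.8%, 23.4 to 52.7). That share was 28.5% over all boundaries, within this interval, and 27.3% (20.1 to 35.8) next to clusters.

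Very strong boundaries stood next to several solitary genes. A nearest boundary of strength 2 or more, a limit set after the values were seen, occurred for 10 of the 35 (28.6%, 16.3 to 45.1), against 4.05% of all protein-coding genes and 9.43% of clustered receptor genes. These 10 genes shared only 5 boundaries in 5 runs. As distinct boundaries they were 5 of 38 (13.2%, 5.75 to 27.3), against 3.05% of all boundaries and 13 of 121 next to clusters (10.7%, 6.39 to 17.5).

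The strongest was the left boundary of the Olfr720 run at chr14:14125001-14130000, with a strength of 2.57 and percentile 99.5 of all boundaries. It lay 59.3 kb from Olfr720, and its window held the TSS of Psmd6, a proteasome subunit gene and the nearest non-receptor gene to Olfr720 at 65.9 kb. The other genes of this run, Olfr31 and Olfr721-ps1, were nearer to the right boundary, of strength 0.568. Next came 2.35 at Olfr267 and 2.30 at chr7:84815001-84820000, 36.1 kb from Olfr291 and 95.6 kb from Olfr290. The latter window held no non-receptor coding TSS, and Vmn2r65 was the nearest such gene, 111 kb from Olfr291 and 51.0 kb from Olfr290. The boundary left of Olfr461 and Olfr460, at chr6:40485001-40490000, had a strength of 2.27. Its window, widened by 10 kb on each side, held the TSSs of Tas2r137 and Tas2r108, while the bin itself overlapped no gene model. The fifth was the boundary in Abca1, of 2.03.

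The weakest nearest boundaries were those of Olfr520 and Olfr521, 0.221 at chr7:99800001-99805000, and of the 4 genes on chromosome 17, 0.252 at chr17:33115001-33120000. The latter overlapped Morc2b and lay 50.9 kb from Olfr55, 73.8 kb from Olfr239, 104 kb from Olfr1564 and 147 kb from Olfr63. Morc2b was nearest to Olfr55 and Olfr239, and Zfp955a to Olfr1564 and Olfr63, the last at 9.53 kb. Olfr161 followed, with 0.294 at chr16:3665001-3670000.

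A boundary parted 1 of the 10 runs with more than 1 gene. The weak boundary of 0.294 lay between Olfr161 and Olfr15, 76.5 kb from the former and 163 kb from the latter. This run had the widest gap between its genes, 232 kb, the next widest being 136 kb in the Olfr720 run, which no boundary parted. Olfr161 lay before the first boundary of chromosome 16 and so had no closed interval, and Mefv was its nearest non-receptor gene at 127 kb. The remaining 9 runs each lay within a single interval.

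At the edge of the rule, the runs of 4 on chromosomes 4 and 17 were just inside, and 3 runs of 5 were just outside. The latter, Olfr211 to Olfr215 on chromosome 6, Olfr1378 to Olfr1375 on chromosome 11 and Olfr1320 to Olfr1324 on the X, had median distances of 68.3, 56.1 and 423 kb and median intervals of 195, 275 and 1205 kb, and none of their genes had a boundary at its TSS. Olfr459 was the member closest to another run, 685 kb from Olfr458, and the gap between Olfr161 and Olfr15 was the widest that the rule joined.

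Coding sequences were compared to find the closest relatives of the solitary genes. Identity was computed by global alignment of the annotated coding sequences of all 1134 receptor genes, in GRCm38. The closest receptor gene was in the same run for 13 of the 26 members of runs of 2 to 4. Neither this count nor the identities below were computed for clustered receptor genes, so they describe these genes only. The nearest copies were Olfr55 and Olfr239 at 98.7%, Olfr372 and Olfr373 at 98.0%, Olfr291 and Olfr290 at 96.8%, Olfr1564 and Olfr239 at 91.7%, and Olfr520 and Olfr521 at 88.7%. Short reads from such near copies can be hard to place, and the bearing of this on the boundaries was not tested.

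Several other members of a run were no closer to each other than to distant receptor genes. Olfr374 was 62.0% identical to its neighbour Olfr372 and 71.6% to Olfr161 on chromosome 16. Olfr465-ps1 and Olfr466, with models 4.19 kb apart, were 60.1% identical, and Olfr1326-ps1 and Olfr1325 60.3%. Olfr461 and Olfr460 were 78.4% identical to each other, and 78.8% and 81.0% to Olfr459, 1194 kb away on the same chromosome. Olfr275 and Olfr270 were closest to Olfr267, at 71.7% and 69.3%. Olfr273 and Olfr272 were closest to Olfr157, which lies in a run of 6 on chromosome 4, at 72.3% and 73.5%. Over all 35 genes the identity to the closest receptor gene had a median of 72.3% and ran from 61.0% for Olfr718-ps1 to 98.7%.

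**Figure D4:**
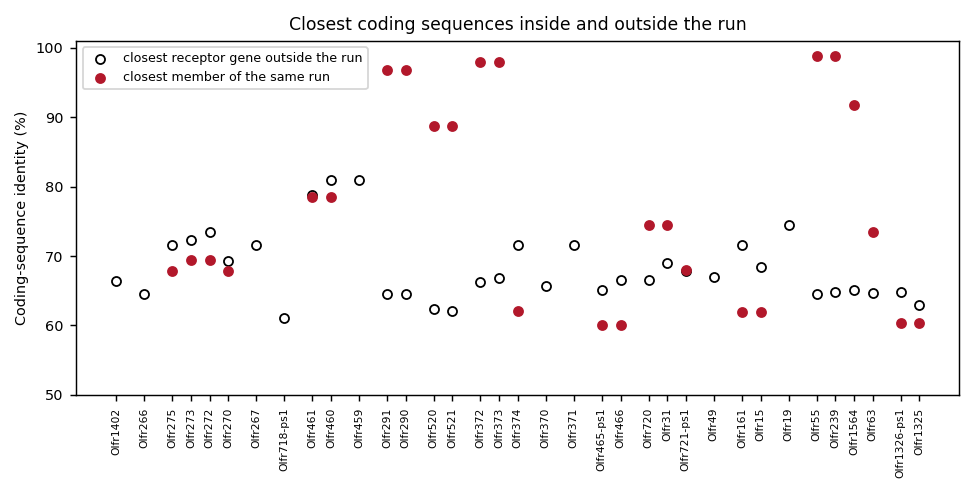
Coding-sequence identity in percent of each solitary receptor gene to its closest receptor gene in the same run (filled) and outside it (open). The axis starts at 50%. Filled points above 85% are the 4 groups of near copies, and single genes have an open point only.

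Genes that act with the receptors in these neurons were placed on the same map. Of 26 genes for receptor signalling, trafficking and choice, 5 had a boundary at the TSS (19.2%), beside 13.0% of all protein-coding genes and 4 of 35 solitary receptor genes. They were Lhx2 with a weak boundary of 0.447, Atf5, a stress-response factor, with a weak one of 0.359, the transcription factor genes Ebf3 with 2.50 and Emx2 with 2.33, and Gng13, a G protein gamma subunit gene, with 1.21. The median distance of the 26 to a boundary was 37.5 kb and their median interval 272.5 kb.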

How the data were processed

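Per the labels and the series' design text, the authors mapped in situ Hi-C reads to GRCm38, combined both replicates and deposited a boundary list with a class and a strength score for each bin of 5000 bp. The class changed at a score of 0.5. The aligner, boundary caller, its window and the scale of the score are, in the sources used here, not given. Contact matrices, insulation and compartment tracks were not used here.

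Boundaries were joined to the GENCODE annotation of GRCm38. Receptor genes were protein-coding genes with symbols of Olfr plus digits, 4 members with a -ps suffix included, and 1 duplicate model of Olfr290 was dropped. Distances ran from the TSS to boundary midpoints. Members and lists were chosen with earlier results of these data known. The named genes were every member, with details for those with a boundary at the TSS, in the 5 longest and 5 shortest intervals, with the 3 strongest and 3 weakest nearest boundaries, and in parted runs. The non-receptor genes named were the nearest to such a member and all those of an interval with at most 10. Genes at a flanking boundary that meet neither (Abca1, Ikbkg, G6pdx, Dnajb1, Tecr, Fgd4 and the J segments at Olfr49) were named after the values were seen. So was Bcl9, the nearest to Olfr1402.

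Joins were tested on simulated data. Python 3.11 was used with pandas 2.3.3, numpy 2.4.6, scipy 1.17.1, pysam 0.24.0, Biopython 1.88, matplotlib 3.10.9 and edlib for alignment. The alternatives were strong boundaries only, other join distances and windows, stricter symbols, runs with pseudogenes, 1 value per run, model midpoints, autosomes only, model overlap and, added after the values were seen, each interval counted once.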

Additional observations from a re-analysis of the deposited data

How the results depend on the processing

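Of 45 recomputed values, 39 stayed near the reported one (counts within 1.5 times, medians within their 95% interval) and 6 moved. The count of solitary genes with a boundary at the TSS was 0 with no widening of the bin, 7 with 25 kb and 13 with 50 kb, where the shares of all protein-coding genes were 3.45%, 25.0% and 44.0%. With strong boundaries only, the median distance was 103 kb, against 102 kb over all genes and 359 kb over clustered receptor genes, and the median interval was 700 kb, against 480 and 1235 kb. With 1 value per run, 16 runs of 18 shared their interval with a non-receptor gene (88.9%). The share was 94.1% per gene and 89.5% over all protein-coding genes. This result moved as a count, since runs are fewer than genes. Joining genes within 250 kb gave 42 members, joining within 1 Mb gave 34 and left out Olfr459, and counting receptor pseudogenes in a run gave 31, without the Olfr275 run.

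No paired analysis was possible because the series has 1 group, whose replicates were combined before boundaries were called. No replicate was left out for the same reason. Distances are read no more finely than the bins of 5000 bp, and the depth behind each boundary is unknown.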
